A study of Mus musculus with 25 samples.

Results

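Interferon-stimulated genes are the genes that cells switch on after an interferon binds its receptor, and 42 of them were followed through mouse livers in 25 animals. The 42 were taken by gene symbol from a list of well-known family members, and the rule uses no measured value, though earlier results of these data were known when the list was drawn up. They lie at 41 of the 46499 loci of the 20-week cohort and at 41 of the 46052 loci of the 39-week cohort, because Igtp and Irgm2 share a locus. All mice were of the C57BL/6 strain on standard diet, and RNA came from whole frozen liver. The 20-week cohort held 4 Ncoa5+/- mice and 4 wild type mice, all untreated. The 39-week cohort held 5 Ncoa5+/- mice given metformin, 5 untreated Ncoa5+/- mice, 3 wild type mice given metformin and 4 untreated wild type mice. Metformin, an antidiabetic drug, was given in drinking water at about 250 mg/kg/day from 8 weeks of age for 31 weeks. Ncoa5 encodes a nuclear receptor coactivator, and Ncoa5+/- mice carry a wild type allele beside the mutant one in every cell of the body. The study set Ncoa5+/- livers against wild type livers at each age, and metformin against no treatment at 39 weeks.

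Type I interferons signal through the kinases Jak1 and Tyk2 to a complex that holds Stat2 and Irf9 and binds the interferon-stimulated response element (ISRE) in promoters. Type II interferon acts mainly through another promoter element, the gamma-activated site (GAS). The induced genes encode sensors of foreign RNA and DNA, the transcription factors of the pathway itself, proteins that block viral replication or release, the ubiquitin-like ISG15 system, and GTPases that attack vacuoles holding intracellular pathogens. In liver, hepatocytes, resident macrophages and endothelial cells all carry interferon receptors, and a low level of these transcripts is present without infection.

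Expression was read as FPKM, the fragments of a locus scaled to its transcript length and to the library's mapped fragments, so that levels of different genes may be set side by side. The deposited values hold no read counts, so the depth behind each value is unknown. The sum of FPKM over all loci ranged over the mice from 695645 to 2089980, and the 50 highest loci took over 70% of it in 3 libraries, namely untreated Ncoa5+/- mouse 3 and metformin-treated Ncoa5+/- mouse 5 at 39 weeks and wild type mouse 4 at 20 weeks. Ncoa5 itself did not separate the genotypes, with 2.90 to 5.03 FPKM in Ncoa5+/- livers and 3.11 to 5.30 FPKM in wild type livers at 20 weeks. At 39 weeks Ncoa5 lay between 2.63 and 4.42 FPKM in untreated Ncoa5+/- livers, against 3.60 to 4.68 FPKM in untreated wild type livers, so that genotype rests on the labels. Of 9 hepatocyte markers, 6 averaged at least 1 FPKM in both cohorts, while albumin (Alb) and Serpina1a were listed at 0 in every mouse, which in such files can be a failed estimate. The cohorts were prepared and sequenced at different facilities, so levels at 20 and 39 weeks were not compared.

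The promoters of these genes were read for the sites that interferon signalling uses. RefSeq holds a window of 300 bases around the transcription start (250 before it and 50 after it, GRCm38.p6) for 32 of the 42 members. The core of the ISRE, written GAAANNGAAA on either strand, lay in a window of 16 of these 32 genes, against 3.99% of all 27025 genes with a window. The GAS core, written TTCNNNGAA on either strand, lay in a window of 10 of the 32 (31.2%), against 9.55% of all genes. Neither motif was searched beyond these windows. Irf7 and Oasl1, which are described in detail below, have no match of either motif in their windows. The promoters of 6 members that do hold matches follow, chosen to show how the matches are arranged, each as the 250 bases before the start, 5′ to 3′ in the direction of the gene, with motif matches in capitals. The windows belong to Bst2 (chr8:71537473-71537722, minus strand), Isg15 (chr4:156200819-156201068, minus strand), Ifit3 (chr19:34583279-34583528, plus strand), Gbp3 (chr3:142559794-142560043, plus strand), Igtp (chr11:58199306-58199555, plus strand) and Irf1 (chr11:53769764-53770013, plus strand).
Bst2: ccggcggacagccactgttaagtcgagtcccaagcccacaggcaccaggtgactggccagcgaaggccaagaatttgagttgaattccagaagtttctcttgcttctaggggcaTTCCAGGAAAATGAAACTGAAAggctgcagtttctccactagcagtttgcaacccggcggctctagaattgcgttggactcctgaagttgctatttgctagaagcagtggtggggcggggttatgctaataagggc
Isg15: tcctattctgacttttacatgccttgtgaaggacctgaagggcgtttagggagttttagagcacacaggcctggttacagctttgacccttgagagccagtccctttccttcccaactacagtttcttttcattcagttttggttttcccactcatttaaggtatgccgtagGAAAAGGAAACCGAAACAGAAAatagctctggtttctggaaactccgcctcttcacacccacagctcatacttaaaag
Ifit3: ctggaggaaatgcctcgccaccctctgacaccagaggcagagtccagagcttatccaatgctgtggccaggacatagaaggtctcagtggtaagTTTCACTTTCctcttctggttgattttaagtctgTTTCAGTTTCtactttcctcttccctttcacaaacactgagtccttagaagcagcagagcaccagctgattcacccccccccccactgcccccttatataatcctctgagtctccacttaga
Gbp3: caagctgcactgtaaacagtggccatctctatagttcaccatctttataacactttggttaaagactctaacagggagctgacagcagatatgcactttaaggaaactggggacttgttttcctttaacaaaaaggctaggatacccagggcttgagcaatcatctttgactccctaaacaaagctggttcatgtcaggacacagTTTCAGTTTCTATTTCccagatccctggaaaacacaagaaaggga
Igtp: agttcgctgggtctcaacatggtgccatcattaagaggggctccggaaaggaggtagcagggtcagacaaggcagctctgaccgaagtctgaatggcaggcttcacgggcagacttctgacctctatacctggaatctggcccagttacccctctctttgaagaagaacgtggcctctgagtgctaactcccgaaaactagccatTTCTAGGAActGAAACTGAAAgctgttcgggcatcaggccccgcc
Irf1: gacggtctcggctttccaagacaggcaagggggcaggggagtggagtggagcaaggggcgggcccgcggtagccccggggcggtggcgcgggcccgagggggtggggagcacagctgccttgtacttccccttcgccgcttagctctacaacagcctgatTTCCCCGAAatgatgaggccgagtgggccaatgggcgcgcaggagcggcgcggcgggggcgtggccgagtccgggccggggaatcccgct
In Bst2 the capitals hold a GAS match that runs into 2 overlapping ISRE cores. In Isg15 they hold 3 overlapping ISRE cores, and in Ifit3 they hold 2 separate ISRE cores, read on the opposite strand. Gbp3 has 2 overlapping ISRE cores on the opposite strand, Igtp has a GAS match 2 bases before an ISRE core, and Irf1 has a GAS match alone. The letters say only where these patterns occur, not whether a factor bound there in these livers. The start used for Bst2 is less certain, because the end of its window was not found in a transcript. Its deposited locus ends at chr8:71537437, short of the 250 bases shown.

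**Figure D1:**
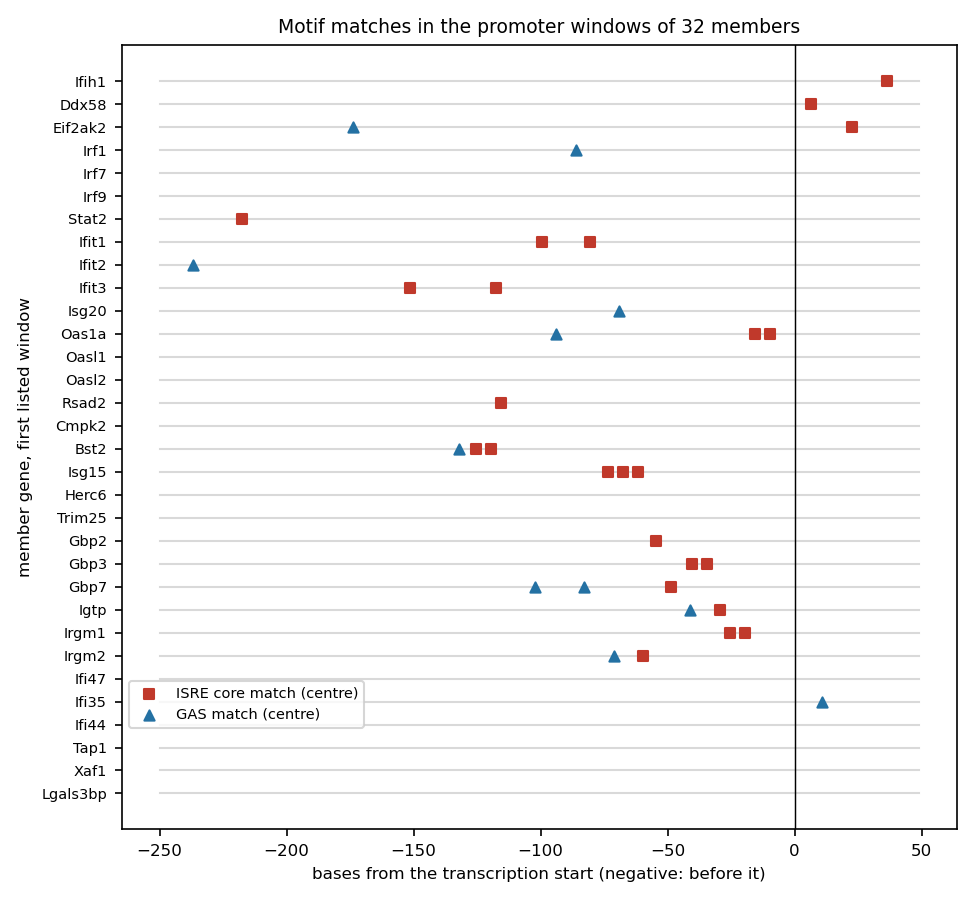
Motif matches by distance from the transcription start (x axis, bases, negative before the start) in the first listed promoter window of each of 32 members (y axis), with red squares at the centre of ISRE core matches and blue triangles at the centre of GAS matches. Of the 32 members, 16 hold an ISRE core and 10 hold a GAS match, most of them before the start.

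Members were transcribed at very different levels. In the 39-week cohort Bst2 averaged 329.4 FPKM over the 17 mice, Ifi27 averaged 218 FPKM and Iigp1 averaged 76.7 FPKM. Lgals3bp averaged 36.3 FPKM and the joint locus of Igtp and Irgm2 averaged 27.0 FPKM. At the low end stood Mx1 at 0.376 FPKM, Oas2 at 0.441 FPKM, Ifi44 at 0.641 FPKM and Ifit2 at 0.917 FPKM. No member was at 0 in any mouse. A cohort mean of at least 1 FPKM was asked for a test, which 35 of the 41 loci met at 20 weeks and 37 of the 41 met at 39 weeks. Ifit2, Oas1a, Oas2, Cmpk2, Mx1 and Ifi44 fell short at 20 weeks, and Ifit2, Oas2, Mx1 and Ifi44 fell short at 39 weeks. Oas1a passed at 39 weeks although its mean reached 1 FPKM in 3 of the 4 groups only. Some values are uncertain, because the locus also carries another gene's name (Ifi47 with Olfr56, Irf9 with Rnf31, Gbp7 with RP23-100J23.5, Eif2ak2 with Gm6548, and at 20 weeks Rtp4 with Masp1), and the Ifit, Oas, Gbp, Mx and Irgm genes are families of close relatives among which reads may have been shared out.

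No member passed the test in any comparison (limma on log2(FPKM + 1), Benjamini-Hochberg adjusted p under 0.05 over all tested loci). The member nearest to it was Bst2 in untreated livers at 39 weeks, which was higher in every Ncoa5+/- mouse than in any wild type mouse and missed the threshold. Under metformin most members had lower means than without it, in both genotypes, with median log2 fold changes of -0.13 and -0.12. The members varied together between mice, at 39 weeks and in part at 20 weeks. At 39 weeks 3 untreated livers, 1 of Ncoa5+/- and 2 of wild type mice, had the highest median deviation from the cohort mean. Metformin-treated Ncoa5+/- mouse 5 and untreated Ncoa5+/- mouse 5 also lay above the cohort median for most members, 30 and 27 of 37.

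Bst2, or tetherin, is a membrane protein that holds budding virus particles on the cell surface, and its locus spans chr8:71534264-71537437 in the deposited files. At 20 weeks Bst2 had 311, 263, 280.0 and 314 FPKM in the 4 Ncoa5+/- livers, against 225, 269, 161 and 181 FPKM in the 4 wild type livers. The groups overlapped, since wild type mouse 2 lay above Ncoa5+/- mouse 2. The means were 292 ± 24.5 FPKM and 209 ± 48.0 FPKM (SD, n = 4 each), a log2 fold change of 0.51 ± 0.18 (standard error) with a limma adjusted p of 0.603 (unadjusted p = 0.0206). At 39 weeks untreated Ncoa5+/- livers held 394, 433, 424, 334 and 333 FPKM of Bst2, against 251, 284, 295 and 314 FPKM in untreated wild type livers. Here the groups did not overlap. The means were 384 ± 47.9 FPKM (SD, n = 5) and 286 ± 26.5 FPKM (SD, n = 4), a log2 fold change of 0.42 ± 0.09 with a limma adjusted p of 0.0891. Among all tested loci, 0.262% were called in that comparison and 1.81% had groups without overlap. Bst2 was called when the libraries were quantile normalized (limma adjusted p = 0.0320) and when untreated Ncoa5+/- mouse 5 was left out (limma adjusted p = 0.045), and it was further from a call when the compared groups were fitted alone (limma adjusted p = 0.476).

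In metformin-treated mice Bst2 had 328, 322, 331, 355 and 312 FPKM in Ncoa5+/- livers, against 276, 303 and 310.1 FPKM in wild type livers. These groups again did not overlap, though by a small margin, and the means of 329.6 ± 16.005 FPKM (SD, n = 5) and 296 ± 17.9 FPKM (SD, n = 3) gave a log2 fold change of 0.15 ± 0.10 (limma adjusted p = 1.0). Groups without overlap occurred at 3.72% of loci in that comparison. Metformin-treated Ncoa5+/- livers lay below untreated Ncoa5+/- livers on average for Bst2, by a log2 fold change of -0.21 ± 0.08 (limma adjusted p = 0.521), with overlap. For wild type livers the log2 fold change of Bst2 under metformin was 0.05 ± 0.10 (limma adjusted p = 0.907). The difference between these 2 metformin effects was -0.26 ± 0.13 on the log2 scale, and its limma adjusted p was 0.991.

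**Figure D2:**
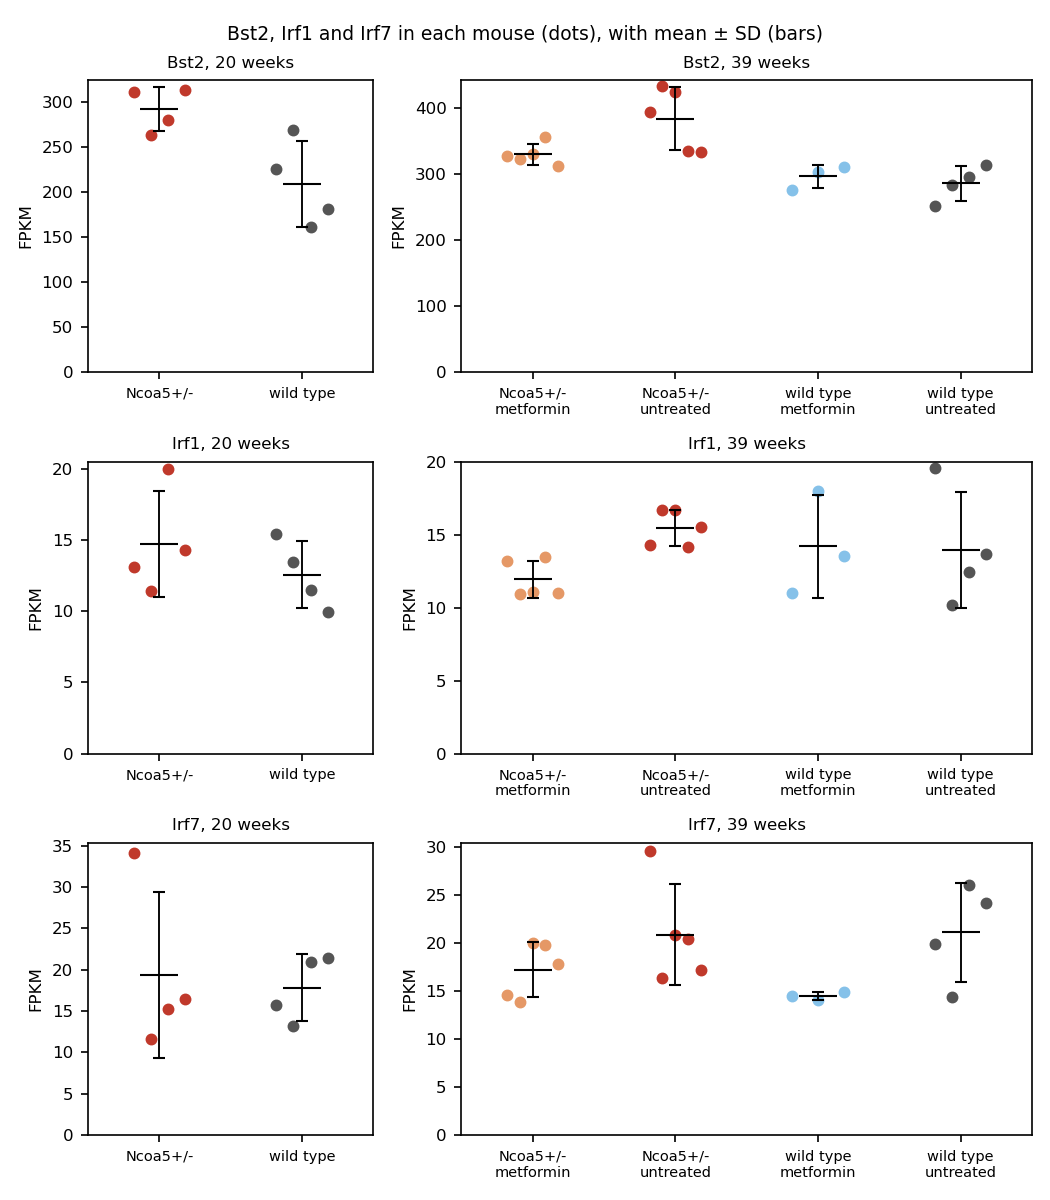
FPKM (y axis, from 0) of Bst2, Irf1 and Irf7 in each mouse (dots) with group mean and SD (bars), at 20 weeks on the left and at 39 weeks on the right. Untreated Ncoa5+/- livers at 39 weeks, between 333 and 433 FPKM of Bst2, all lie above untreated wild type livers, and Irf1 of metformin-treated Ncoa5+/- livers lies below that of untreated Ncoa5+/- livers.

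In untreated livers at 20 weeks the members split evenly, 17 with a higher mean log2 value in Ncoa5+/- livers and 18 with a lower one, where 45.6% of all loci were lower, and leaving out 1 mouse gave 10 to 25 lower. Their median log2 fold change was -0.0014, beside 0.028 over all tested loci. None passed the limma test, nor did any other locus (0.0%), and 1 member had an unadjusted p under 0.05, beside 7.48% of all loci. No member had groups without overlap, beside 4.02% of all loci. After Bst2, the smallest p-values belonged to Ifi27, Isg15, Tap1 and Stat2. Ifi27, a small membrane-associated protein, had 183, 98.2, 155 and 210.4 FPKM in Ncoa5+/- livers, against 116, 121, 109.6 and 101 FPKM in wild type livers. Its Ncoa5+/- livers therefore lay on both sides of the wild type ones, and the log2 fold change was 0.47 ± 0.23 (limma adjusted p = 0.603). Isg15, the ubiquitin-like protein that is attached to other proteins during an interferon response, had 10.6, 12.3, 16.98 and 15.3 FPKM in Ncoa5+/- livers, against 9.71, 10.9, 11.3 and 11.3 FPKM in wild type livers (log2 fold change 0.31 ± 0.15). Tap1, which carries peptides to class I molecules, had a log2 fold change of -0.58 ± 0.30, and Stat2 had one of 0.24 ± 0.14, or 0.14 without Ncoa5+/- mouse 3. The highest livers for Isg15 and Stat2, Ncoa5+/- mice 3 and 4, also had summed FPKM of 7 neutrophil and monocyte markers of 20.6 and 15.96, against 2.60 to 4.53 in the other Ncoa5+/- livers and 2.28 to 3.74 in wild type livers. Of these 7 markers 2 averaged at least 1 FPKM and none was at 0 in every mouse, and their part in the members' values was not tested. In the authors' deposited table for this comparison, 0 of 41 tested members were marked significant, beside 2.1% of all its tested genes. Igtp and Irgm2, whose values there are the same, were counted apart. Bst2 had a log2 fold change of 0.53 with a q-value of 0.176 in that table.

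In untreated livers at 39 weeks 14 members had a positive log2 fold change for Ncoa5+/- over wild type and 23 a negative one, where 55.4% of all loci were negative, and leaving out 1 mouse gave 13 to 30 negative. The members' median was -0.026, beside -0.017 over all loci. Bst2 alone had an unadjusted p under 0.05, beside 5.62% of all loci. The next smallest p-values were those of Gbp3, Rsad2, Herc6 and Gbp2, all with lower means in Ncoa5+/- livers. Gbp3, a guanylate-binding GTPase of the vacuole attack, had 5.85, 1.40, 2.43, 2.14 and 1.92 FPKM in untreated Ncoa5+/- livers, against 4.86, 2.65, 4.01 and 4.14 FPKM in untreated wild type livers. Ncoa5+/- mouse 1 was the highest of the 9, while the other 4 Ncoa5+/- livers lay below every wild type liver, and the log2 fold change was -0.47 ± 0.25 (limma adjusted p = 0.913). Gbp2, its relative, had 3.13, 1.28, 1.18, 1.43 and 1.45 FPKM in Ncoa5+/- livers and 4.22, 1.42, 2.20 and 1.70 FPKM in wild type livers, and 1 liver stood far above the rest in each group. The log2 fold change was -0.31 ± 0.22 for Gbp2, -0.29 ± 0.16 for Rsad2 (viperin, which makes a chain-ending nucleotide) and -0.28 ± 0.19 for Herc6, the main ligase of ISG15 in mice. These values moved when 1 mouse was left out, though none of them changed sign. Gbp2 had -0.076 without wild type mouse 1 and -0.47 without Ncoa5+/- mouse 1, and Gbp3 had -0.72 without Ncoa5+/- mouse 1. Without wild type mouse 4, Rsad2 had -0.14 and Herc6 had -0.15, and Herc6 had -0.17 without Ncoa5+/- mouse 2.

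Between metformin-treated genotypes 17 members were higher and 20 lower in Ncoa5+/- livers, where 51.8% of all loci were lower, and the median was -0.0042, beside -0.0057 over all loci. None passed the limma test, beside 0.157% of all loci, and none had an unadjusted p under 0.05, beside 4.35% of all loci. Besides Bst2, only Ifi35 had groups without overlap, with 15.5, 17.5, 16.5, 16.9 and 16.1 FPKM in Ncoa5+/- livers, against 17.6, 18.9 and 18.1 FPKM in wild type livers. The log2 fold change of Ifi35, a regulator of innate signalling, was -0.13 ± 0.09, a small difference between groups that nearly touch. Isg15 followed with -0.35 ± 0.25, Irf1 with -0.21 ± 0.17 and Irf7 with 0.22 ± 0.19. The value of Irf1 was -0.038 without metformin-treated wild type mouse 2 and -0.37 without metformin-treated wild type mouse 1.

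Metformin was then set against no treatment within each genotype, in comparisons that share no mice. In Ncoa5+/- livers 31 of 37 members had a negative log2 fold change, beside 49.8% of all loci. Among wild type livers 28 of 37 did, beside 52.4% of all loci. The members' median was -0.13 in Ncoa5+/- livers, beside 0.0 over all loci, and -0.12 in wild type livers, beside -0.010 over all loci. None was called in either genotype, nor was any other locus (0.0% in each). An unadjusted p under 0.05 was reached by 3 members in Ncoa5+/- livers, beside 8.83% of all loci, and by 3 in wild type livers, beside 9.35% of all loci.

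Between mice of a group the median over the members varied with an SD of 0.188 on the log2 scale at 39 weeks, and no test of the medians was made. Both medians stayed below 0 under every setting run, though their size moved. The median under metformin in Ncoa5+/- livers was -0.045 without untreated Ncoa5+/- mouse 1, with 25 members below 0, and -0.20 without the 2 libraries of that cohort in which the 50 highest loci took over 70% of the sum. The wild type median was -0.051 without untreated mouse 4 and -0.064 without metformin-treated mouse 1, and it was -0.21 without untreated mouse 2, -0.19 without metformin-treated mouse 3 and -0.21 without metformin-treated mouse 2.

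By role, all 5 sensors and all 4 transcription factors had negative log2 fold changes under metformin in Ncoa5+/- livers, with medians of -0.13 and -0.16. Among wild type livers 4 of the 5 sensors and 3 of the 4 transcription factors did. Of 10 antiviral effectors tested, 8 were negative in Ncoa5+/- livers and 9 in wild type livers, with medians of -0.099 and -0.26. Of 7 GTPase loci, 6 were negative in each genotype, with medians of -0.097 and -0.25. In the ISG15 system 3 of 4 were negative in each genotype, with medians of -0.18 in Ncoa5+/- livers and -0.13 in wild type livers. The other interferon-stimulated genes were negative at 5 of 7 loci in Ncoa5+/- livers and at 3 of 7 in wild type livers, with medians of -0.14 and 0.0022. The shares of all loci below 0 were 49.8% and 52.4%, as given above, and no member of any role was called.

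Irf1, a transcription factor that drives many of the other members, had 13.2, 10.9, 11.1, 13.4 and 10.98 FPKM in metformin-treated Ncoa5+/- livers, against 14.3, 16.7, 16.7, 14.2 and 15.5 FPKM in untreated Ncoa5+/- livers. Every treated liver lay below every untreated one, which occurred in 1 direction or the other at 1.57% of all loci. The log2 fold change was -0.35 ± 0.14 with a limma adjusted p of 0.526. Among wild type livers Irf1 had 11.01, 18.01 and 13.6 FPKM under metformin and 19.5, 10.1, 12.4 and 13.7 FPKM without it, with full overlap (log2 fold change 0.03 ± 0.17). The difference between the genotypes in this effect was -0.39 ± 0.23, with a limma adjusted p of 0.991.

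Irf7, the factor that amplifies type I interferon production, had 14.6, 13.9, 20.0, 19.8 and 17.8 FPKM in metformin-treated Ncoa5+/- livers, against 29.6, 16.3, 20.8, 20.4 and 17.2 FPKM in untreated ones. Wild type livers held Irf7 at 14.5, 14.1 and 14.9 FPKM under metformin, against 19.9, 14.4, 26.0 and 24.1 FPKM without it. The groups overlapped in both genotypes, in wild type through untreated mouse 2 alone. The log2 fold change was -0.25 ± 0.17 in Ncoa5+/- livers (limma adjusted p = 0.692), or -0.12 without untreated mouse 1, and -0.48 ± 0.20 in wild type livers (limma adjusted p = 0.478). For Irf7 the 20-week Ncoa5+/- livers held 34.1, 11.6, 15.3 and 16.4 FPKM and the wild type livers 15.8, 13.1, 20.9 and 21.4 FPKM.

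Mx2, a dynamin-like GTPase with antiviral activity, had 1.43, 0.802, 1.65, 1.40 and 1.196 FPKM in metformin-treated Ncoa5+/- livers, against 2.15, 1.82, 1.99, 1.16 and 1.92 FPKM in untreated ones. Only untreated mouse 4 lay within the treated range, and the log2 fold change was -0.29 ± 0.13 (limma adjusted p = 0.559). In the 39-week cohort Mx2 and Mx1 have the same coordinates (chr16:97447035-97560900), and reads may have been shared out between them. Parp14, an ADP-ribosyltransferase, followed with -0.16 ± 0.11, or -0.063 without untreated mouse 1. Of the wild type livers' members, Gbp3 had 1.66, 2.11 and 2.50 FPKM under metformin, all below the untreated wild type livers, where it had 4.86, 2.65, 4.01 and 4.14 FPKM. Groups without overlap occurred at 8.33% of all loci in that comparison, and the log2 fold change of Gbp3 was -0.66 ± 0.29 (limma adjusted p = 0.4998). In Ncoa5+/- livers Gbp3 had 2.05, 1.76, 3.91, 1.964 and 2.26 FPKM under metformin, a log2 fold change of -0.07 ± 0.24. Gbp2 had a log2 fold change of -0.54 ± 0.25 in wild type livers, Rsad2 had -0.33 ± 0.18 and Isg20, an exonuclease that degrades RNA, had -0.33 ± 0.19. Without untreated wild type mouse 1 the value of Gbp2 was -0.31, and Rsad2 had -0.18 without either untreated mouse 4 or metformin-treated mouse 1.

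Oasl1 is an oligoadenylate synthetase-like protein that restrains Irf7 translation in mice. In the authors' deposited table for metformin in Ncoa5+/- livers it alone of the 42 members was marked significant, beside 1.22% of all tested genes there, with 4.28 FPKM under metformin and 6.52 FPKM without it, a log2 fold change of -0.61 and a q-value of 0.0279. That table put 36 of the 42 members below 0, with Igtp and Irgm2 counted apart although their values there are the same. The share of all its tested genes below 0 was not computed. By mouse, Oasl1 had 2.47, 2.92, 4.32, 3.23 and 6.56 FPKM in metformin-treated Ncoa5+/- livers, against 5.76, 2.76, 4.04, 5.90 and 12.6 FPKM in untreated ones. The groups overlapped over most of their range, and untreated mouse 5 stood far above the rest. The limma log2 fold change was -0.48 ± 0.33 with an adjusted p of 0.700, and -0.21 when that mouse was left out. Wild type livers had Oasl1 at 2.72, 4.02 and 3.31 FPKM under metformin and 6.85, 2.41, 4.96 and 9.88 FPKM without it, a log2 fold change of -0.58 ± 0.40.

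**Figure D3:**
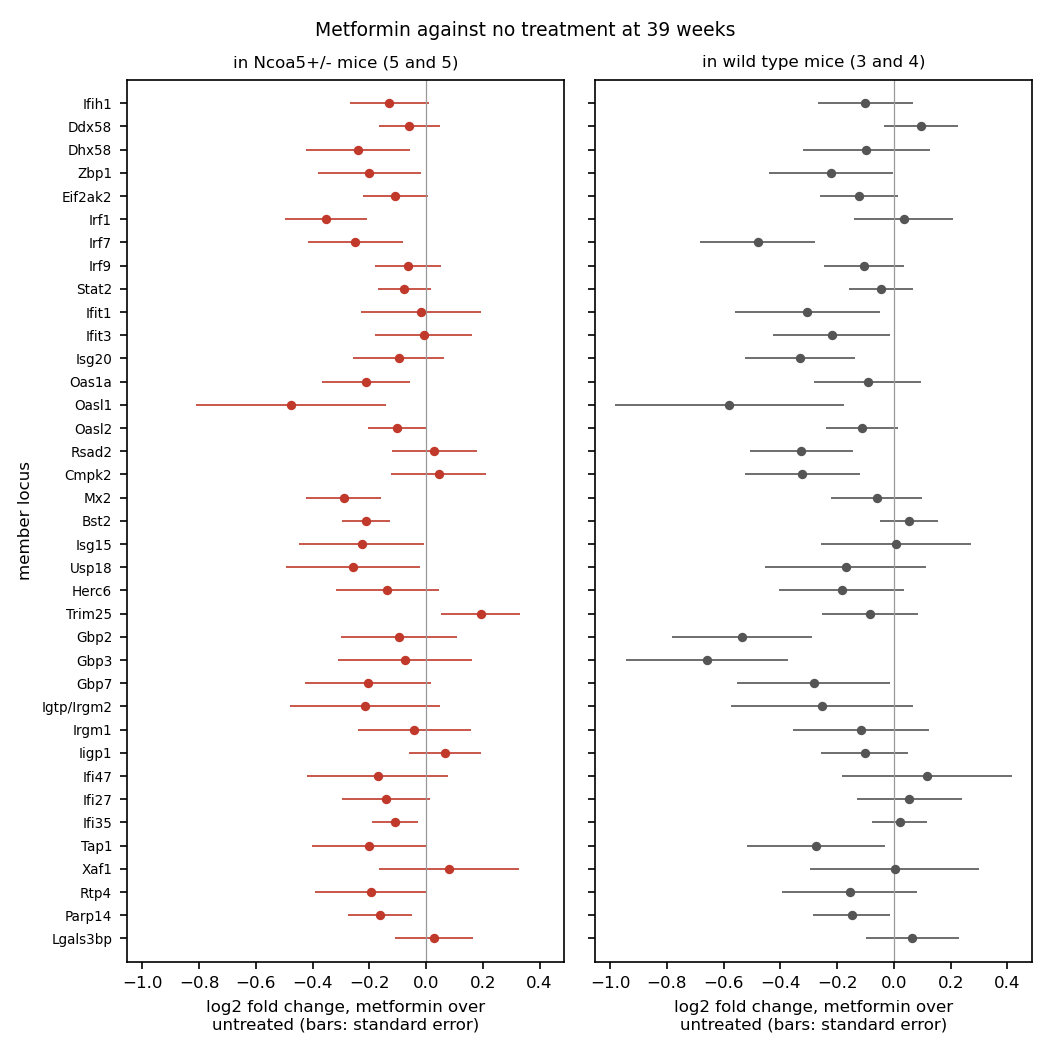
Limma log2 fold changes, metformin over untreated (x axis, bars are standard errors), of the 37 tested member loci (y axis), in Ncoa5+/- mice on the left and in wild type mice on the right. Most points lie below 0 in both, 31 of 37 on the left and 28 of 37 on the right, and many of the bars reach 0.

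The interaction of genotype and metformin, the difference between the 2 metformin effects, was called at no member and at no other locus (0.0%). No member had an unadjusted p under 0.05, beside 2.79% of all loci. Of the members, 16 of 37 were below 0, beside 47.7% of all loci. Leaving out 1 mouse gave 9 (without untreated wild type mouse 2) to 26 (without untreated wild type mouse 4) below 0, and medians of either sign, from -0.076 to 0.12. After Bst2 and Irf1, the smallest p-values belonged to Gbp3 with a difference of 0.58 ± 0.37, Rsad2 with 0.35 ± 0.24 and Cmpk2, a nucleotide kinase next to Rsad2 in the genome, with 0.37 ± 0.26. Irf1 had -0.21 without metformin-treated wild type mouse 2, and Rsad2 had 0.21 without untreated wild type mouse 4 and 0.20 without metformin-treated wild type mouse 1.

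The sensors with the highest mean levels at 39 weeks were Eif2ak2 and Ddx58. Eif2ak2, the kinase PKR that halts translation on double-stranded RNA, had 6.16, 6.83, 5.30, 6.81 and 8.18 FPKM in metformin-treated Ncoa5+/- livers, against 9.07, 5.71, 6.70, 6.94 and 7.88 FPKM in untreated Ncoa5+/- livers. In wild type livers it had 6.72, 6.21 and 6.91 FPKM under metformin and 7.18, 6.30, 7.19 and 8.63 FPKM without it, so that all 4 groups shared a narrow range. Ddx58, or RIG-I, which detects viral RNA ends, lay between 5.01 and 7.13 FPKM in metformin-treated Ncoa5+/- livers, between 5.23 and 7.56 FPKM in untreated ones, between 5.67 and 7.20 FPKM in metformin-treated wild type livers and between 5.13 and 6.74 FPKM in untreated ones. At 20 weeks Eif2ak2 had 6.23, 5.53, 5.99 and 5.06 FPKM in Ncoa5+/- livers and 4.71, 5.07, 6.22 and 7.21 FPKM in wild type livers. Ddx58 then had 4.23, 3.60, 3.37 and 3.19 FPKM in Ncoa5+/- livers and 2.79, 3.74, 4.10 and 5.05 FPKM in wild type livers. Of the other sensors, Zbp1, which binds Z-form nucleic acids, had the widest range at 39 weeks, from 3.33 to 9.78 FPKM.

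Among the transcription factors, Irf9, the DNA-binding partner of Stat2, lay between 13.8 and 21.6 FPKM over all 17 mice at 39 weeks. It had 15.7, 13.8, 15.9, 17.9 and 19.1 FPKM in metformin-treated Ncoa5+/- livers, against 21.6, 15.1, 16.4, 15.8 and 17.7 FPKM in untreated ones. Its wild type values were 16.3, 16.3 and 17.5 FPKM under metformin and 21.4, 13.997, 17.2 and 20.5 FPKM without it. The highest livers for Irf9 were untreated Ncoa5+/- mouse 1 and untreated wild type mice 1 and 4. Stat2 varied little, with 7.25 to 10.6 FPKM over the 17 mice.

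Within the ISG15 system the most abundant transcripts were Trim25, a ubiquitin ligase that acts on RIG-I, and Isg15. Trim25 had 18.6, 16.6, 19.9, 18.5 and 20.6 FPKM in metformin-treated Ncoa5+/- livers, against 21.6, 13.9, 17.5, 17.8 and 12.4 FPKM in untreated ones. Its log2 fold change of 0.19 ± 0.14 was the highest of any member in that comparison. Wild type livers had Trim25 at 18.3, 14.1 and 18.6 FPKM under metformin and 17.8, 21.4, 19.9 and 13.7 FPKM without it. Isg15 had 6.44, 7.19, 8.76, 9.63 and 10.04 FPKM in metformin-treated Ncoa5+/- livers, against 16.04, 9.67, 10.4, 6.06 and 9.49 FPKM in untreated ones. For wild type livers the Isg15 values were 9.63, 12.7 and 10.4 FPKM under metformin, against 8.68, 8.56, 9.76 and 18.3 FPKM without it. The highest Isg15 values, 18.3 and 16.04 FPKM, were in untreated wild type mouse 4 and untreated Ncoa5+/- mouse 1. Usp18, which strips ISG15 from proteins and dampens receptor signalling, ranged from 1.98 to 7.45 FPKM.

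The most abundant GTPases were Iigp1 and the joint locus of Igtp and Irgm2, which guard against intracellular parasites. Iigp1 had 73.5, 62.8, 81.8, 73.7 and 88.3 FPKM in metformin-treated Ncoa5+/- livers, against 81.7, 63.3, 75.2, 61.1 and 81.2 FPKM in untreated ones. It had 59.8, 91.6 and 80.6 FPKM in metformin-treated wild type livers and 90.6, 75.7, 71.8 and 91.4 FPKM in untreated ones, with overlap throughout. The Igtp and Irgm2 locus had 17.1, 22.1, 29.7, 30.2 and 30.8 FPKM in metformin-treated Ncoa5+/- livers, against 48.7, 23.3, 22.7, 28.7 and 30.5 FPKM in untreated ones. The same locus in wild type livers had 19.0, 22.3 and 22.6 FPKM under metformin, against 45.0, 14.8, 19.5 and 31.8 FPKM without it. The high livers were again untreated Ncoa5+/- mouse 1 and untreated wild type mice 1 and 4, and the low one was untreated wild type mouse 2.

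Of the remaining members, Ifi27 had 182, 219.7, 223, 268 and 177 FPKM in metformin-treated Ncoa5+/- livers, against 291, 215, 302, 193 and 189 FPKM in untreated ones. Its wild type values were 207, 188 and 237 FPKM under metformin and 175, 177, 233 and 231 FPKM without it. Lgals3bp, a secreted glycoprotein that binds galectins, had 32.9, 33.6, 40.1, 37.4 and 39.1 FPKM in metformin-treated Ncoa5+/- livers, against 44.9, 24.1, 38.8, 36.4 and 38.2 FPKM in untreated ones. Lgals3bp stood at 37.3, 35.7 and 36.8 FPKM in metformin-treated wild type livers and at 32.4, 28.5, 38.2 and 42.2 FPKM in untreated ones. The groups overlapped for both genes. Xaf1, which promotes cell death, ranged from 1.83 to 6.58 FPKM at 39 weeks, and Tap1 from 5.55 to 14.7 FPKM.

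The members' variation between mice was joint at 39 weeks and in part at 20 weeks. In each mouse the deviation of every tested member from its cohort mean was taken on the log2 scale, and the median over the members was read. In untreated Ncoa5+/- mouse 1 at 39 weeks this median was 0.35, while that of all tested loci was -0.012. That liver lay above the cohort median for 36 of 37 members, was the highest of its group for 27 and the highest of all 17 for 16, where it was the highest of all 17 at 4.31% of all tested loci. Untreated wild type mouse 4 had a median of 0.31 and lay above the cohort median for 35 members, and untreated wild type mouse 1 had 0.25 and 29 members. Among metformin-treated mice, Ncoa5+/- mouse 5 was highest, with a median of 0.14 and 30 members above the cohort median. The lowest livers were metformin-treated wild type mouse 1 at -0.25, metformin-treated Ncoa5+/- mice 2 and 1 at -0.22 and -0.21, and untreated wild type mouse 2 at -0.19, which was the lowest of its group for 27 members. At 20 weeks the medians ran from -0.18 to 0.15 in Ncoa5+/- livers and from -0.20 to 0.18 in wild type livers. No liver was the highest of the 8 for more than 9 of the 35 members. Ncoa5+/- mouse 3 and wild type mouse 3 reached that count, and were the highest at 16.3% and 13.9% of all loci. Wild type mouse 1 lay above the cohort median for 5 members and was the lowest of the 8 for 13, beside 6.72% of all loci. Ncoa5+/- mouse 2 lay above the cohort median for 8 members and Ncoa5+/- mouse 1 for 27. The SD of the members' median between mice of a group was 0.163, against 0.188 at 39 weeks.

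**Figure D4:**
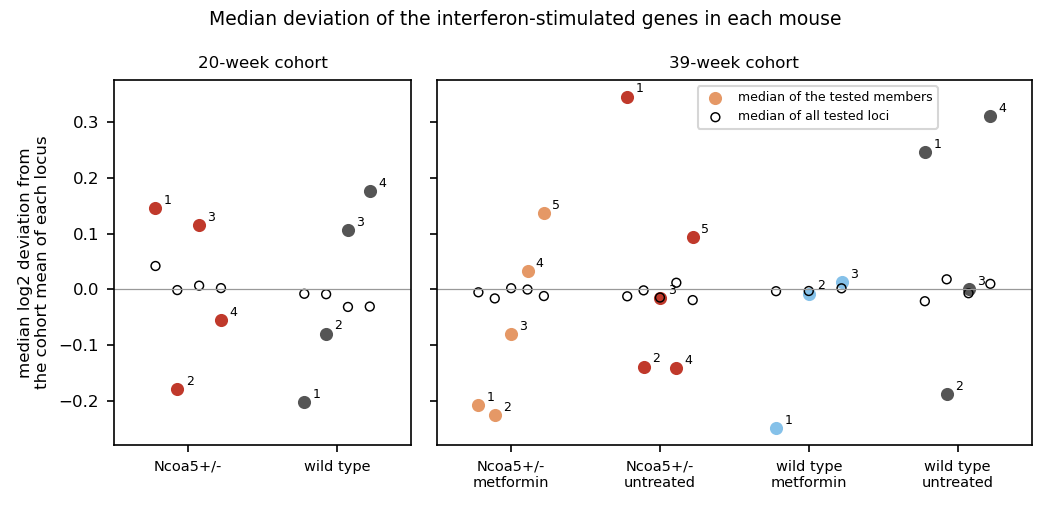
Median log2 deviation from the cohort mean of each locus (y axis) by mouse, over the tested members (filled dots, numbered by mouse) and over all tested loci (open circles), at 20 weeks on the left and at 39 weeks on the right. At 39 weeks untreated Ncoa5+/- mouse 1 (0.35) and untreated wild type mice 4 (0.31) and 1 (0.25) are highest, while all loci stay near 0 in every mouse.

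**Figure D5:**
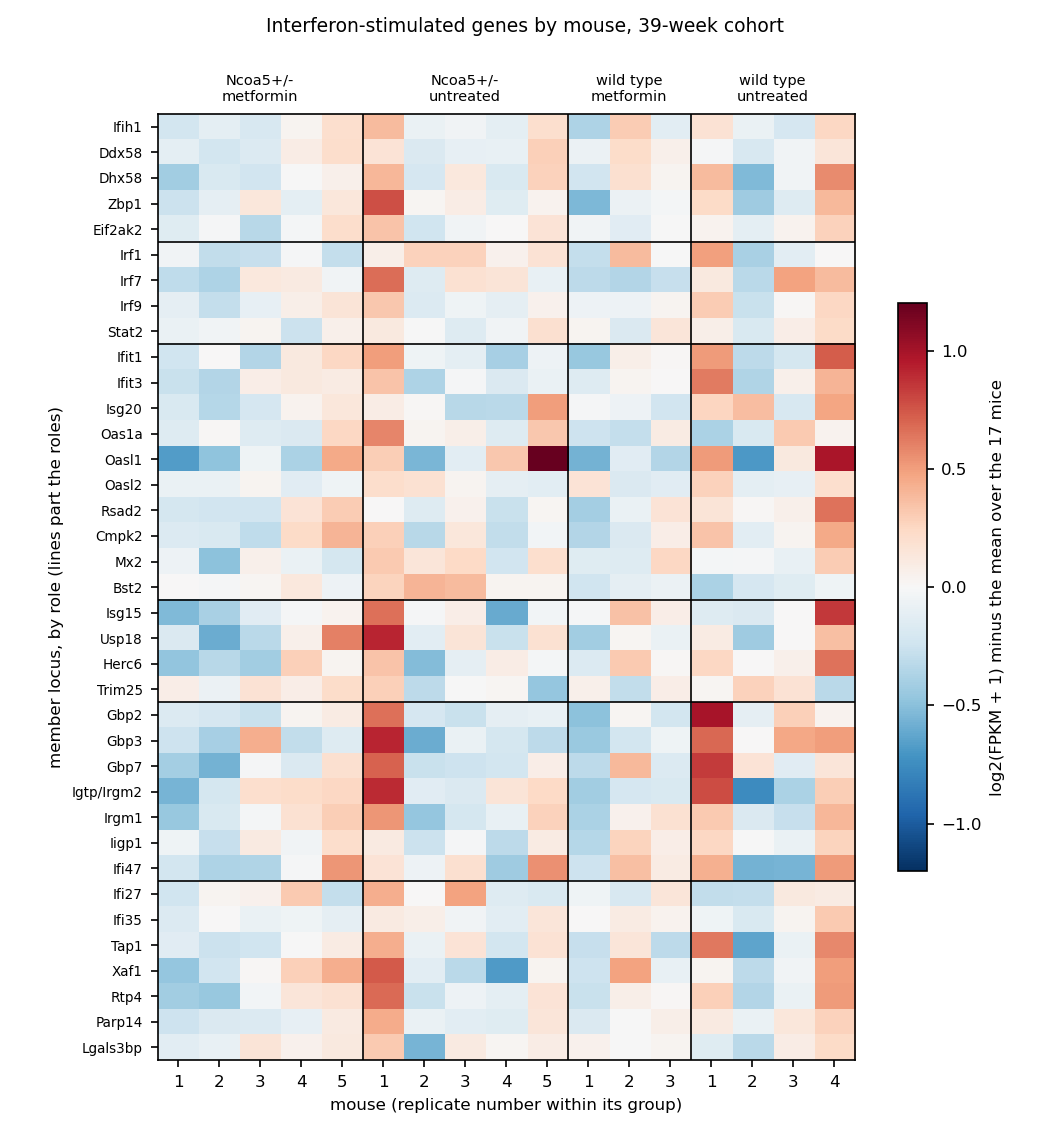
Log2(FPKM + 1) minus the mean over the 17 mice of the 39-week cohort (colour, red above and blue below) for 37 tested member loci (rows, ordered by role) in each mouse (columns, by group), where values beyond the colour bar take its end colour. Untreated Ncoa5+/- mouse 1 is above the cohort median for 36 of 37 rows and untreated wild type mouse 4 for 35.

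The members' spread within groups was wide at 39 weeks, in a comparison with all loci that was not matched for level of expression. The median residual SD of the members was 0.273 on the log2 scale, beside 0.179 over all tested loci. At 20 weeks it was 0.249, beside 0.252 over all loci. Oasl1 varied most at 39 weeks, with a residual SD of 0.575 and a 5.23-fold range between the lowest and the highest liver. Igtp and Irgm2 followed at 0.455, then Ifi47 at 0.424 and Xaf1 at 0.419. Ifi35 and Bst2 varied least, with residual SDs of 0.124 and 0.131. At 20 weeks Gbp7 varied most (0.569) and Iigp1 least (0.135).

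Markers of immune cells differed between the 39-week livers, and not every cell type was highest in the same liver. The T and NK cell sum was highest in untreated Ncoa5+/- mouse 2 (15.6 FPKM), whose members' median was -0.14. Metformin-treated Ncoa5+/- mouse 5 (13.9 FPKM) and untreated Ncoa5+/- mouse 1 (13.3 FPKM) came next. The neutrophil and monocyte sum was highest in metformin-treated Ncoa5+/- mouse 5 (22.6 FPKM), then in untreated wild type mouse 2 (22.1 FPKM). The summed FPKM of 6 B cell markers was 938 in untreated Ncoa5+/- mouse 1 and 504 in metformin-treated Ncoa5+/- mouse 5, against 25.8 to 114 in the other 39-week livers. By group these sums ran from 31.4 to 504 in metformin-treated Ncoa5+/- livers, from 37.8 to 938 in untreated ones, from 25.8 to 85.8 in metformin-treated wild type livers and from 40.04 to 90.02 in untreated ones. The heavy chain transcript Ighm had 266 and 141 FPKM in those 2 livers and at most 47.1 FPKM elsewhere. Of the 6 markers, 4 averaged at least 1 FPKM and none was at 0 in every mouse. The 4 markers of plasmacytoid dendritic cells, the main producers of type I interferon in blood, summed to 4.20 and 5.69 FPKM in the same 2 livers. The others had 0.944 to 3.43 FPKM, and 1 of the 4 markers averaged above 1 FPKM. Siglech, a gene of plasmacytoid dendritic cells, did not follow this sum. It had 0.212 and 0.138 FPKM in those 2 livers and 0.0472 to 0.329 FPKM in the others. The sum alone therefore does not show that plasmacytoid dendritic cells were more numerous there. Untreated wild type mice 1 and 4, which were also high for the members, had B cell sums of 90.02 and 59.3 FPKM, within the range of the rest. The part of these cells in the members' values was not tested, and in whole liver fewer cells of a type cannot be told apart from less RNA per cell.

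Of 11 Kupffer cell and macrophage markers none was called in any comparison. In untreated livers all 11 had negative log2 fold changes for Ncoa5+/- over wild type at 20 weeks (median -0.65) and at 39 weeks (median -0.34), where 45.6% and 55.4% of all loci were negative. The groups overlapped in the markers' sums at both ages. Their sums were 58.5 to 101 FPKM in Ncoa5+/- livers and 69.5 to 177 FPKM in wild type livers at 20 weeks. At 39 weeks they were 154 to 418 FPKM in untreated Ncoa5+/- livers and 243 to 608 FPKM in untreated wild type livers. Between metformin-treated genotypes 9 of the 11 were negative (median -0.045). Under metformin 10 of the 11 were positive in Ncoa5+/- livers (median 0.26) and 6 of the 11 in wild type livers (median 0.033). Their part in the members' values was not tested.

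The rest of the interferon pathway was read from a list of 57 further genes, of which 37 loci were tested at 20 weeks and 38 at 39 weeks. None was called in any comparison. Of 9 interferon genes, the ligands, none averaged 1 FPKM, and Ifnb1, Ifna1, Ifna2, Ifna4, Ifne, Ifnl2 and Ifnl3 were listed at 0 in every mouse. The 9 together summed to at most 0.146 FPKM in any liver at 20 weeks and 0.222 FPKM at 39 weeks. Without read counts, a value of 0 need not mean that a transcript was absent.

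At 20 weeks the smallest p-values of that list belonged to Ptpn2, a phosphatase that dampens Jak and Stat signalling, with 8.85 FPKM in Ncoa5+/- and 6.24 FPKM in wild type livers (log2 fold change 0.45 ± 0.23), and to Cd74, the class II invariant chain (-0.55 ± 0.28). In untreated livers at 39 weeks they were those of 2 adaptors of Toll-like receptors. Ticam1 had 3.73 FPKM in Ncoa5+/- and 5.34 FPKM in wild type livers (log2 fold change -0.42 ± 0.12, limma adjusted p = 0.319), and Myd88 had 9.89 FPKM and 12.9 FPKM (-0.35 ± 0.12, limma adjusted p = 0.549). The same 2 led for the interaction, with 0.30 ± 0.17 for Ticam1 and 0.18 ± 0.17 for Myd88. In metformin-treated livers the kinase Tyk2 (0.14 ± 0.08) and the type II receptor chain Ifngr2 (0.30 ± 0.16) came first.

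Antigen presentation genes, which interferons induce, had lower means under metformin in both genotypes. Of 14 tested, 13 had negative log2 fold changes in Ncoa5+/- livers and 13 in wild type livers, beside the 49.8% and 52.4% of all loci, and both medians were -0.19. Unlike those of the members, these counts and medians were not recomputed with single mice left out or under other settings. Tapbp, which loads peptide onto class I molecules, averaged 53.1 FPKM in metformin-treated and 64.2 FPKM in untreated Ncoa5+/- livers (log2 fold change -0.27 ± 0.07, limma adjusted p = 0.387). Tapbp in wild type livers averaged 54.8 FPKM under metformin and 63.4 FPKM without it (-0.20 ± 0.09). Tap2, the partner of Tap1, averaged 8.59 FPKM in metformin-treated and 10.8 FPKM in untreated Ncoa5+/- livers, and 8.93 FPKM and 11.5 FPKM in metformin-treated and untreated wild type livers (log2 fold changes -0.30 ± 0.11 and -0.32 ± 0.14, limma adjusted p = 0.486 and 0.490). The class I gene H2-D1 had log2 fold changes of -0.17 ± 0.08 in Ncoa5+/- livers and -0.23 ± 0.09 in wild type livers. Psme1, a proteasome activator subunit, was the member of this group with positive values in both genotypes, 0.10 ± 0.09 and 0.21 ± 0.10. The 4 tested B cell markers were all negative under metformin in Ncoa5+/- livers (median -0.33), and 2 of the 4 were negative in wild type livers (median 0.039). Of 10 T and NK cell markers 1 was tested, at -0.44 in Ncoa5+/- livers and 0.067 in wild type livers. The part of these cells in the antigen presentation genes was not tested.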

How the data were processed

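Per the labels, RNA was taken from whole livers of individual mice, and libraries of the 2 cohorts were prepared by different facilities. Per the submitters' processing notes the tools were Trimmomatic 0.33, TopHat2, Cufflinks and Cuffnorm, with the build GRCm38.p5; other versions are not given in the sources used here. The deposited values are FPKM per locus, normalized by Cuffnorm within each cohort. The authors also deposited 2 tables of their own comparisons, which hold group FPKM, log2 fold changes, p-values and q-values; their direction was turned to match the text.

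Members were matched by gene symbol. Each cohort was fitted apart with limma 3.58.1 in R 4.3.3 (lmFit, eBayes with a trend) on log2(FPKM + 1), over loci with a cohort mean of at least 1 FPKM, with Benjamini-Hochberg adjustment over all of them and a threshold of 0.05. A fold change on this scale understates the change of low genes. At 39 weeks the 4 groups shared one estimate of the spread. Loci at 0 throughout a group while above 0 throughout another with a mean of at least 1 FPKM were left out as failed estimates. The scripts were tested on simulated data. Mice are numbered within a group in order of deposition only. In each comparison the 5 members with the smallest p are named, and in each role the 2 with the highest mean at 39 weeks are given; Oasl1 was also named from the authors' table. The members and gene lists were chosen with earlier results of these data known. The alternatives covered the pseudocount, the FPKM filter, the scaling of libraries, the variance model, library weights, failed estimates, loci of several names, the groups fitted, the 3 libraries with a high share in the top loci, and each mouse left out. FPKM without counts gives no counting interval, so precision rests on the number of mice. Values of 1 further gene of the pathway list are not reported here.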

Additional observations from a re-analysis of the deposited data

Results flagged for a closer look

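In 15 of the 205 combinations of a group of 4 or 5 mice and a member locus, the highest or the lowest mouse stood apart from its group by Dixon's criterion at the 95% level. Chance alone flags about 1 in 20 such combinations, and members measured in the same mouse are not independent.

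Untreated Ncoa5+/- mouse 1 at 39 weeks accounted for 6 of them, each as the highest of 5 livers. Zbp1 stood at 9.78 FPKM there, Usp18 at 7.45 FPKM, Gbp2 at 3.13 FPKM, Gbp3 at 5.85 FPKM, Gbp7 at 5.81 FPKM and Ifi44 at 1.42 FPKM. This was also the liver with the highest B cell marker sum, and a part of those cells in the values was not tested. In metformin-treated Ncoa5+/- livers Gbp3 stood apart at 3.91 FPKM in mouse 3.

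In untreated wild type livers at 39 weeks Oas2 stood apart at 1.07 FPKM in mouse 3, and Mx2 at 2.14 FPKM and Isg15 at 18.3 FPKM in mouse 4, each as the highest of 4. At 20 weeks Irf9 at 11.4 FPKM in wild type mouse 3, Trim25 at 11.7 FPKM in wild type mouse 2 and Cmpk2 at 0.624 FPKM in wild type mouse 1 were the lowest of their group. In Ncoa5+/- mouse 1 of that age Cmpk2 was the lowest of its group at 0.696 FPKM and Gbp3 the highest at 2.46 FPKM.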

How the results depend on the processing

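Of 916 values recomputed under other settings, 912 kept their direction and their side of the threshold or moved by less than the spread between mice. The other 4 concern Bst2 for genotype in untreated livers at 39 weeks, which made the count of members called 1 under quantile normalization (log2 fold change 0.42, limma adjusted p = 0.0320) and 1 without untreated Ncoa5+/- mouse 5 (0.47, limma adjusted p = 0.045). Leaving out each mouse in turn gave counts of 0 to 1 there, with an adjusted p of Bst2 between 0.045 and 0.265. The cause was not tested. In the other 5 comparisons the count was 0 under every setting run. The 912 do not measure how steady the medians were. A median counted as kept, even with a change of sign, when it moved by less than the SD between mice. That SD was 0.163 at 20 weeks and 0.188 at 39 weeks. No member was called to begin with, so a named gene kept its side of the threshold unless it became called.

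Over all loci the number called moved by more than 1.5 times: 11 to 38 for genotype in untreated livers at 39 weeks (30 as reported), 4 to 31 in metformin-treated livers (18), 0 to 13 at 20 weeks (0), 0 to 4 for metformin in Ncoa5+/- livers (0), 0 to 2 in wild type livers (0) and 0 to 5 for the interaction (0). The members' median for genotype had either sign (-0.11 to 0.084 at 20 weeks, -0.14 to 0.059 in untreated and -0.067 to 0.034 in metformin-treated livers at 39 weeks), as had that for the interaction (-0.076 to 0.12), while the metformin medians stayed below 0. No paired analysis was possible because replicate numbers follow the order of deposition and pair no mice. With 3 to 5 mice a group, no read counts, and members below 1 FPKM untested, small differences in the low members were not detectable. Nor does the lack of calls show that the other members were unchanged. Log2 fold changes down to -0.66, for metformin in wild type livers, were not called.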
